A study of Mus musculus with 12 samples.

Results

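The mitochondrial ribosomal proteins were examined in the growing epithelium of the mouse mammary gland, as every array probe whose gene symbol begins with Mrpl or Mrps followed by a digit. The rule found 71 probes for 68 genes, 43 Mrpl and 25 Mrps, among 17589 probes, of which 14136 named 1 gene each (12913 genes). Total RNA from 2 microdissected structures, terminal end buds (6 arrays) and mature ducts (6 arrays), was labelled with Cy5 and hybridised together with Cy3-labelled RNA of distal stroma, the part of the fat pad that the epithelium had not yet reached. All tissue came from mammary glands at 5 weeks of age in B-actin-GFP reporter mice, whose fluorescence made the gland visible for dissection. The labels name no strain, number of animals or pooling, so the p-values measure the spread between arrays, which may be technical. Each value is a log ratio of epithelium over stroma, read here as log2 because its base is not stated. On another log base the folds below would change, while signs and adjusted p-values would not. Stroma was hybridised only as the reference channel, always in Cy3, so dye and tissue cannot be told apart in the ratios to it. Stroma amounts to 1 control, and the comparisons with it hold no measure of how stroma itself varied.

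The mitochondrial ribosome translates the few messages of the mitochondrial genome, all of which encode membrane subunits of the respiratory chain and the ATP synthase. Its ribosomal RNAs are mitochondrial, while all of its proteins are encoded in the nucleus, made in the cytosol and imported. Some of these proteins descend from bacterial ribosomal proteins, and others were added in the mitochondrial lineage. Tissues with many mitochondria, such as heart, are known for high levels of these transcripts. Mrps36 carries the family's name but is known as a subunit of the 2-oxoglutarate dehydrogenase complex, and Mrps30 and Mrps18a sit in the large subunit in spite of their names.

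Luminal and basal markers were enriched in both structures. All 8 luminal markers were higher than stroma in both structures, with a median log2 ratio of 4.47 in terminal end buds and 3.61 in ducts (keratin gene Krt18, 5.19 and 4.98). Of 6 basal markers, 5 were higher in terminal end buds and 6 in ducts. Markers of fat were lower: all 10 brown adipocyte markers in terminal end buds and 9 in ducts (Ucp1, the uncoupling protein of brown fat, -3.54 and -1.82), and 11 and 6 of 12 white adipocyte markers. Of 7 endothelial markers, 7 were lower in terminal end buds and 5 in ducts (medians -1.36 and -0.35), while of 8 fibroblast markers 3 and 5 were higher and none was lower (medians 0.01 and 0.68). The array medians over all probes lay between 0.01 and 0.023. In bulk tissue, fewer cells of a type and less RNA per cell cannot be told apart.

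Start sites of 60 of the 68 genes were matched by gene number in the RefSeq promoter table (build GRCm38.p6), which gives 250 bases before to 50 bases after each start. Motifs of 3 factors known for nuclear genes of mitochondria were searched for on both strands, and none lies wholly within another. The NRF1 palindrome, of 10 letters with 1 of them free, occurred in 10 of the 60 genes (16.7%), against 5.19% of all 27025 genes in the table and 9.03% of the 10228 genes that the array also measured. The letters CCGGAAG, named for the ETS family that includes GABPA, occurred in 20 (33.3%, against 9.93% and 15.6%). The letters ATGGCGGC, named for YY1, occurred in 10 (16.7%, against 2.60% and 4.31%). At least 1 motif was found in 33 of 60 genes (55%), against 15.8% of all genes and 25.5% of those on the array. A match is a description of the letters in the window and does not show a bound site.

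The 250 bases before the start are printed for 3 members that carry a motif there. Mrpl34 and Mrpl39 were among the lowest members in both structures, and Mrpl52 was the highest in terminal end buds. Capitals mark the motif: CCGGAAG starting 37 bases before the Mrpl34 start (chr8:71464676-71464925, plus strand), the NRF1 motif starting 125 bases before the Mrpl39 start (chr16:84735245-84735494, minus strand), and the ETS letters on the opposite strand starting 47 bases before the Mrpl52 start (chr14:54426659-54426908, plus strand). The ETS letters stood before the start of Mrpl34, which was lower than stroma, and of Mrpl52, which was higher. Whether motifs go with the direction of the ratios was not tested. None of the 3 motifs occurred in the windows of Mrps36, Mrpl42 and Mrps10, on which the results below also turn.
Mrpl34: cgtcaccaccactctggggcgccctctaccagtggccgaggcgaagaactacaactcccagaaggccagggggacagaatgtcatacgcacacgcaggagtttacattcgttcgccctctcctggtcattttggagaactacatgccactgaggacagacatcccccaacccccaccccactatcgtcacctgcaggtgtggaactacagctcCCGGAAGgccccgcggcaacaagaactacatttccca
Mrpl39: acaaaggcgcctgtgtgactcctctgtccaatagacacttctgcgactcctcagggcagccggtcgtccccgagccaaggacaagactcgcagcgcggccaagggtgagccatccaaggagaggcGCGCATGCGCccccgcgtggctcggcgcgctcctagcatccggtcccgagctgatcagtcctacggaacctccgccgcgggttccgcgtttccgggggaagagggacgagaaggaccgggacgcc
Mrpl52: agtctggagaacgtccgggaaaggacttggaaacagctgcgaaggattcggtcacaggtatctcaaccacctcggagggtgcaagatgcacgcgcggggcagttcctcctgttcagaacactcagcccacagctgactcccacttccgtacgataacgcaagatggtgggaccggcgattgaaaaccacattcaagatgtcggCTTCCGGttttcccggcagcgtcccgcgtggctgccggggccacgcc

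In terminal end buds, the club-shaped tips that drive the ducts through the fat pad, most mitochondrial ribosomal protein genes were lower than in stroma. Of the 68 genes, 40 were lower, 5 were higher and 23 did not pass an adjusted p of 0.05 (limma, Benjamini-Hochberg over all probes). Among all genes on the array 21.8% were lower and 24.8% were higher (of all probes, 20.4% and 23.2%). The median log2 ratio over the members was -0.29, a 1.22-fold lower level, against 0.01 over all genes. The shifts were mostly small: 17 of the 40 lay at -0.5 or below and 3 at -1 or below. On all 6 terminal end bud arrays, 37 members were below 0 (20.2% of all genes) and 4 were above it (23.1%).

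Mrps36 was the lowest member. Its log2 ratios in terminal end buds ran from -1.89 through a median of -1.40 to -0.92, so that every array was below 0 (mean -1.35, SE 0.15, adjusted p = 3.98e-06, limma, n = 6). Mrpl42, a large subunit protein that bacteria lack, ran from -1.47 through -1.15 to -1.04 (mean -1.19, SE 0.09, adjusted p = 5.62e-08). Mrpl34, the counterpart of the bacterial large subunit protein of the same number, ran from -1.53 through -0.94 to -0.69 (mean -1.04, SE 0.13, adjusted p = 8.31e-06). These were the 3 members at -1 or below, and none of their arrays reached 0.

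Below them came Mrpl39 (mean -0.85), Mrps31 (-0.85), Mrpl47 (-0.83), Mrpl30 (-0.80), Mrpl50 (-0.79), Mrpl18 (-0.76), Mrps33 (-0.74), Mrpl4 (-0.70) and Mrpl46 (-0.64), with adjusted p-values from 5.13e-08 to 0.000135. Mrpl39, Mrpl46, Mrpl50, Mrps31 and Mrps33 have no bacterial counterpart. Mrpl47 sits at the exit of the tunnel through which the new chain leaves, Mrpl4 lines that tunnel, and Mrpl18 belongs to the central protuberance, a projection of the large subunit. Mrps31 was uneven: 5 arrays lay between -1.15 and -0.97 and replicate 6 at 0.20. Mrpl50 ranged from -1.32 to -0.07 around a median of -0.87, with all arrays below 0.

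The 5 genes that were higher stood apart from this pattern. Mrpl52, a large subunit protein without a bacterial counterpart, ran from 0.77 through 1.15 to 1.28 (mean 1.08, SE 0.07, adjusted p = 1.21e-08). Mrps10, of the head of the small subunit, ran from 0.10 through 1.04 to 1.82 (mean 1.02, SE 0.17, adjusted p = 0.000172). Mrpl38, a protein of the central protuberance specific to mitochondria, ran from 0.64 through 0.80 to 1.55 (mean 0.90, SE 0.10, adjusted p = 3.21e-06). All arrays of these 3 genes were above 0, although they spread widely for Mrps10. The SE comes from the fit, which uses 1 estimate of spread for both structures. For Mrps10 the duct arrays spread less (-0.44 to -0.05), so its SE does not describe the terminal end bud arrays alone. Mrps12, the counterpart of the bacterial protein at the decoding centre, was higher by less (0.18 to 0.44, mean 0.28, SE 0.07, adjusted p = 0.00518). Mrpl23, at the tunnel exit, ran from -0.06 to 0.61 (mean 0.25, adjusted p = 0.018), and its call was lost without terminal end bud replicate 5 (adjusted p = 0.0732).

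**Figure D1:**
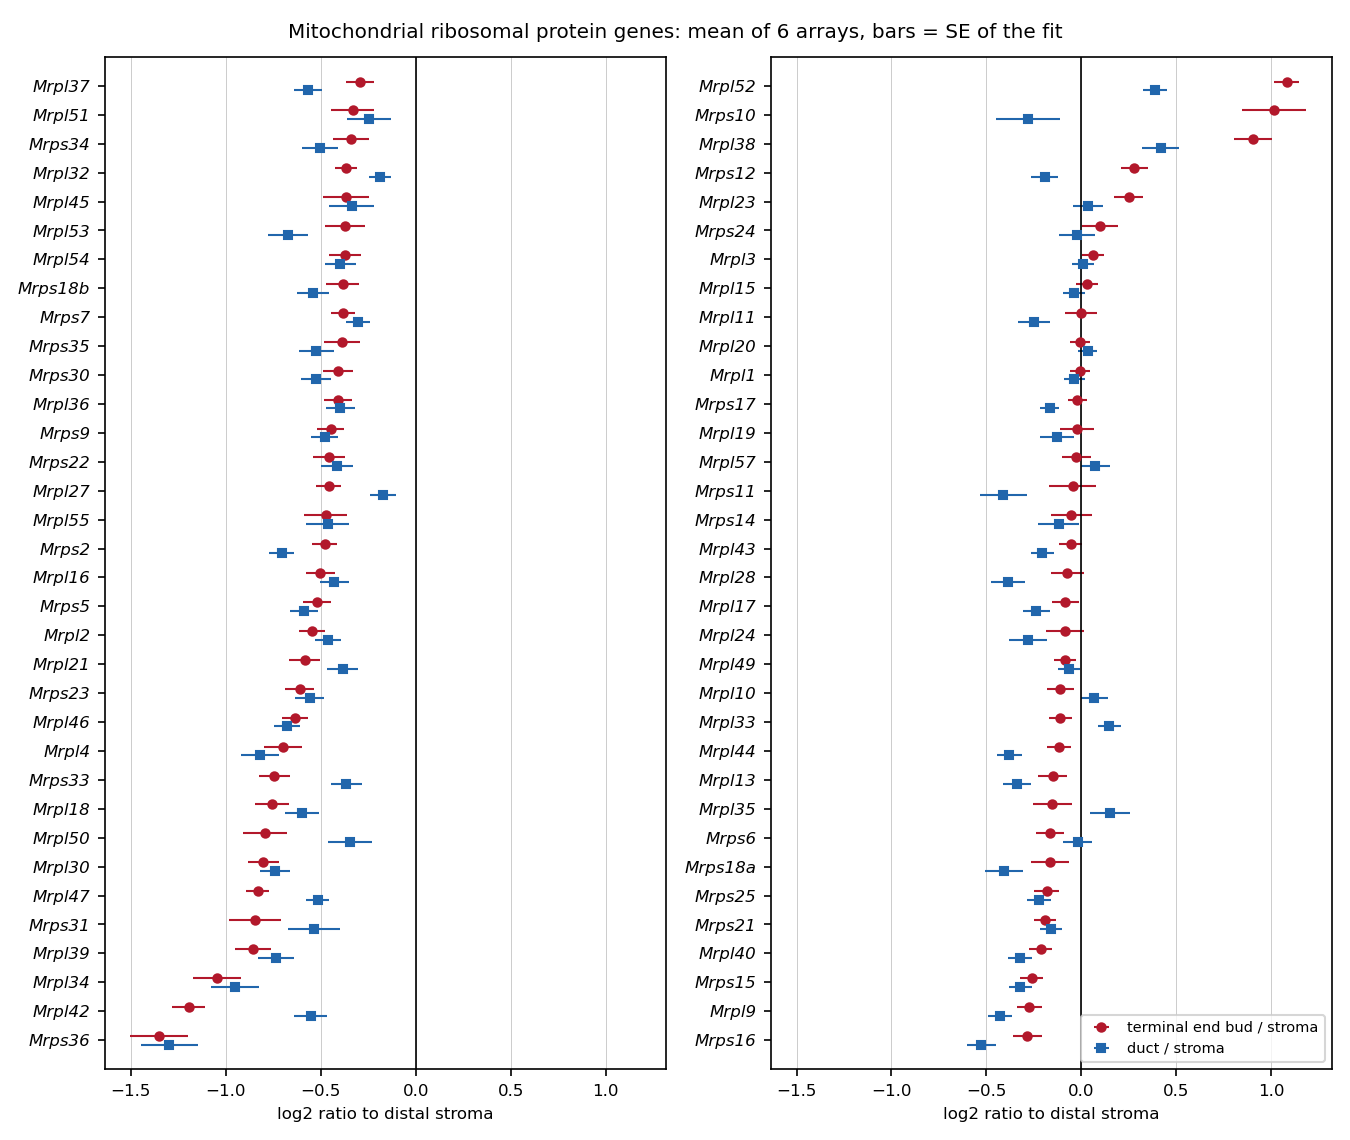
Mean log2 ratio to distal stroma of each of the 68 genes in terminal end buds (circles) and ducts (squares), each from 6 arrays, with bars for the standard error of the fit. Most points lie to the left of 0 in both structures, while Mrpl52, Mrps10 and Mrpl38 lie far to the right in terminal end buds.

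In mature ducts, the tubes left behind the advancing tip, 47 of the 68 genes were lower than stroma, 2 were higher and 19 did not pass. Among all genes 13% were lower and 17.1% were higher (of all probes, 12.2% and 16%). The member median was -0.36, a 1.28-fold lower level, against 0.01 over all genes. On all 6 duct arrays, 48 members were below 0 (15% of all genes) and 2 were above it (18.9%). Of the 47, 20 lay at -0.5 or below and 1, Mrps36, at -1 or below.

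Mrps36 in ducts ran from -2.08 through -1.22 to -0.68 (mean -1.30, SE 0.15, adjusted p = 2.1e-05). Mrpl34 ran from -1.51 through -0.82 to -0.66 (mean -0.95, SE 0.13, adjusted p = 6.41e-05). Mrpl4 ran from -1.39 through -0.74 to -0.52 (mean -0.82, SE 0.10, adjusted p = 2.94e-05). In each of these the lowest array was duct replicate 2, and no array reached 0. The other 9 of the 12 lowest were Mrpl30 (-0.74), Mrpl39 (-0.73), Mrps2 (-0.70), Mrpl46 (-0.68), Mrpl53 (-0.67), Mrpl18 (-0.60), Mrps5 (-0.59), Mrpl37 (-0.57) and Mrps23 (-0.56), with adjusted p-values from 3.31e-06 to 0.00026. Mrps2 and Mrps5 are small subunit proteins with bacterial counterparts, and Mrpl37, Mrpl53 and Mrps23 are specific to mitochondria.

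The 2 higher genes in ducts were again Mrpl38 (0.27 to 0.67, mean 0.42, SE 0.10, adjusted p = 0.00545) and Mrpl52 (0.29 to 0.44, mean 0.39, SE 0.07, adjusted p = 0.000502). Both were above 0 on every duct array. Leaving out single arrays gave 38 to 48 lower genes in ducts, the fewest without duct replicate 2, and 38 to 40 in terminal end buds.

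Both sets of ratios use stroma as their denominator, so the overlap between them is not independent. Lower in both structures were 37 genes. Lower in terminal end buds and not passing in ducts were Mrpl27, Mrpl51 and Mrps21. Lower in ducts and not passing in terminal end buds were Mrpl11, Mrpl13, Mrpl17, Mrpl24, Mrpl28, Mrpl43, Mrpl44, Mrps11, Mrps17 and Mrps18a. None of these 10 differed between the structures when that difference was tested (adjusted p from 0.0613 to 0.408), and 6 of the 10 calls (Mrpl11, Mrpl17, Mrpl24, Mrpl43, Mrps11 and Mrps17) were lost without at least 1 array, duct replicate 2 or 5 in each case among them. Passing in neither were 13 genes, among them Mrpl10 of the stalk that recruits translation factors (-0.11 in terminal end buds, adjusted p = 0.249, and 0.07 in ducts, adjusted p = 0.538). Mrpl11, also of the stalk, was at -0.00 in terminal end buds (adjusted p = 0.99) and -0.25 in ducts (adjusted p = 0.0402), a call lost without duct replicate 1, 2, 5 or 6.

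Calls near the threshold rested on few arrays for other members too. Mrpl45, which anchors the ribosome to the inner membrane near the tunnel exit, was lower in terminal end buds (-0.37, adjusted p = 0.0217) and ducts (-0.34, adjusted p = 0.0493). The first call was lost without terminal end bud replicate 2, 3 or 6 and the second without any 1 of 10 arrays (all but terminal end bud replicate 3 and duct replicate 6). Also lost without at least 1 array were Mrps21 (without terminal end bud replicate 1) and Mrps25 (2, 4 or 5) in terminal end buds, and in ducts Mrpl32 (without duct replicate 1, 2, 3 or 6), Mrpl50 (1 to 5) and Mrps25 (2 or 6). Mrpl51 in terminal end buds (-0.33) fell short without replicate 1 or 4 (-0.31 and adjusted p = 0.0741 without the first, -0.19 and adjusted p = 0.0967 without the second). Its lowest array lay at -1.05 and the median was -0.21. In ducts its ratio of -0.25 passed when terminal end bud replicate 4 was left out of the fit (adjusted p = 0.0307).

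Against each other, the structures differed in few members. Of 68 genes, 4 were higher in terminal end buds than in ducts, 4 were lower and 60 did not pass. These shares of 5.88% each compare with 9.11% higher and 11.3% lower among all genes (8.32% and 10.4% of all probes). The median difference was 0.04, and the 95% intervals of the 60 genes lay within -0.80 and 0.74, with a median half-width of 0.233 over all members. The balance of the 8 calls depended on how arrays were scaled: quantile normalization gave 12 higher and 0 lower with a median of 0.19, and a common median absolute deviation gave 6 higher and 0 lower with a median of 0.11. The median difference over all probes stayed at 0.01 and -0.00 under these scalings.

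Mrps10 differed most between the structures. Its terminal end bud arrays ran from 0.10 to 1.82, while all duct arrays were below 0, from -0.44 through -0.28 to -0.05. The difference was 1.29 (95% interval 0.78 to 1.81, SE 0.24, adjusted p = 0.00163), and the arrays did not overlap. Mrpl52 was 0.69 higher in terminal end buds (95% interval 0.49 to 0.89, SE 0.09, adjusted p = 0.000167), again with no overlap, as its highest duct array was at 0.44 and its lowest terminal end bud array at 0.77. Mrps12 was 0.47 higher (95% interval 0.26 to 0.69, SE 0.10, adjusted p = 0.00436), its duct arrays running from -0.57 to 0.03. These 3 calls held under the scalings above and without any single array, and were lost when only the 4 arrays on slides 190 to 193 were used (adjusted p = 0.272, 0.0718 and 0.0574). Mrpl38 was 0.49 higher (SE 0.14, adjusted p = 0.0241), with overlapping arrays, but its call was lost under quantile normalization (0.30, adjusted p = 0.235), under the common median absolute deviation (0.36, adjusted p = 0.0824) and without duct replicate 1 (adjusted p = 0.0548).

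Of the 4 genes lower in terminal end buds, Mrpl42 differed most, by -0.64 (95% interval -0.90 to -0.38, SE 0.12, adjusted p = 0.00202). Its duct arrays ran from -0.85 to -0.17 and lay wholly above those of terminal end buds. Mrpl47 differed by -0.32 (95% interval -0.50 to -0.13, SE 0.08, adjusted p = 0.0166), with duct arrays from -0.63 to -0.38 and terminal end bud arrays from -1.02 to -0.64, again without overlap. Mrps33 differed by -0.38 (SE 0.12, adjusted p = 0.0359) and Mrpl27, near the peptidyl transferase centre, by -0.29 (SE 0.09, adjusted p = 0.0473), both with overlapping arrays. The Mrps33 call was lost without any 1 of 9 arrays (all but terminal end bud replicates 3 and 5 and duct replicate 6), and so was that of Mrpl27 (all but terminal end bud replicates 4 and 5 and duct replicate 5). With neighbouring slide numbers as a fixed block, the Mrpl27 call was lost (adjusted p = 0.0849) and the other 7 calls between the structures were kept (adjusted p up to 0.0324). All 4 calls were lost under both scalings: Mrpl42 was at -0.28 (adjusted p = 0.26) by quantile normalization and at -0.47 (adjusted p = 0.0627) by the common median absolute deviation. The arrays did not overlap for 5 of the 68 genes (7.35%), and the same held for 11.2% of all genes.

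**Figure D2:**
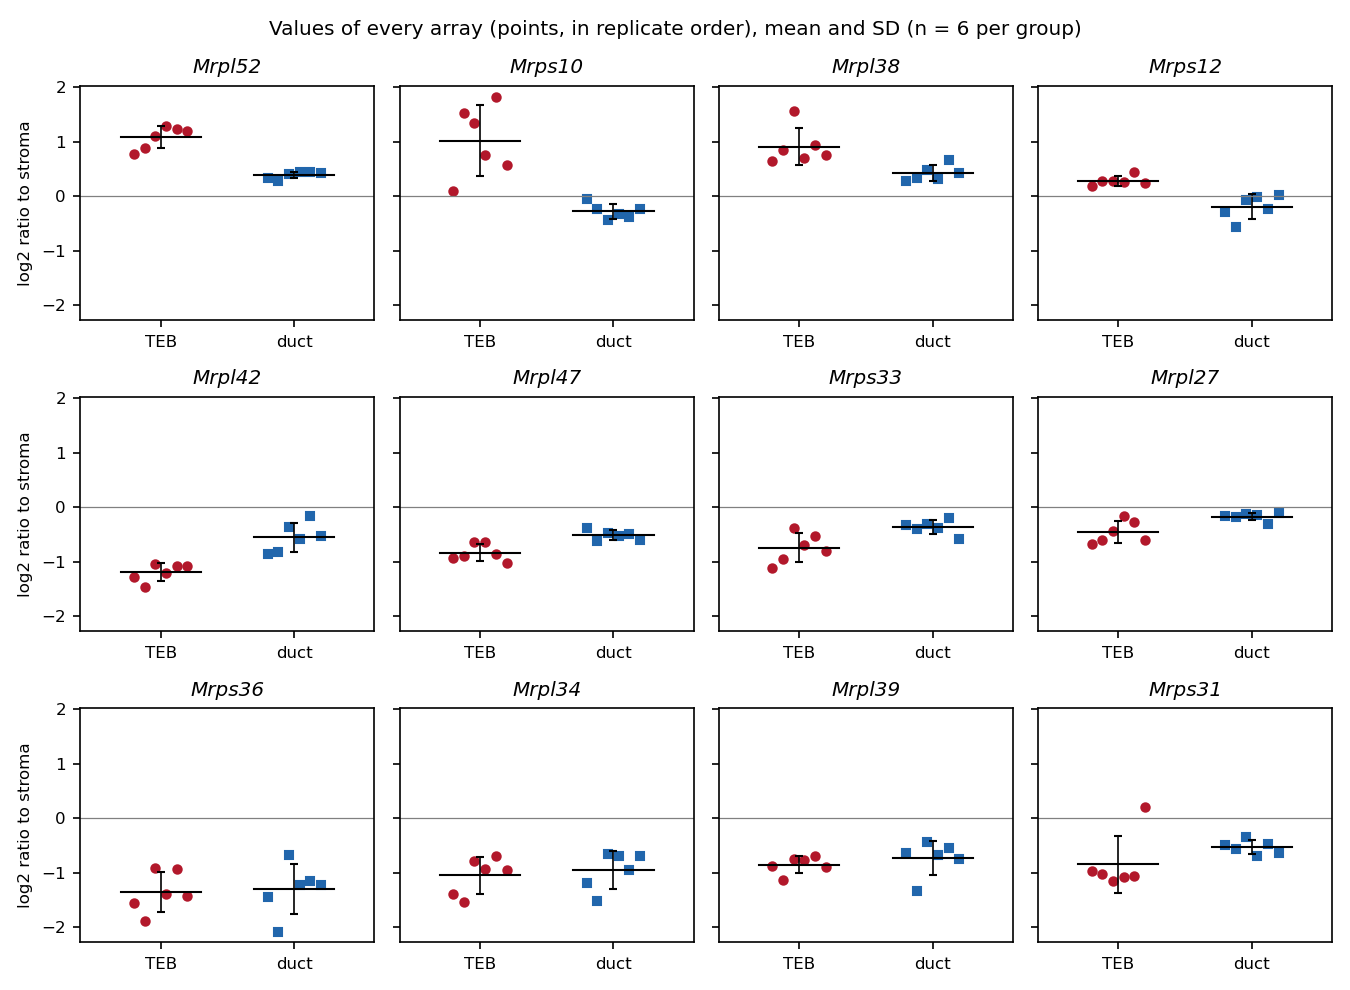
Log2 ratio to stroma on every array for 12 genes: the 8 that differed between the structures and Mrps36, Mrpl34, Mrpl39 and Mrps31. Points are arrays in replicate order, the line is the mean and the bar the SD (n = 6 for each group), and Mrps10 and Mrpl52 show the widest separation upwards and Mrpl42 downwards.

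**Figure D3:**
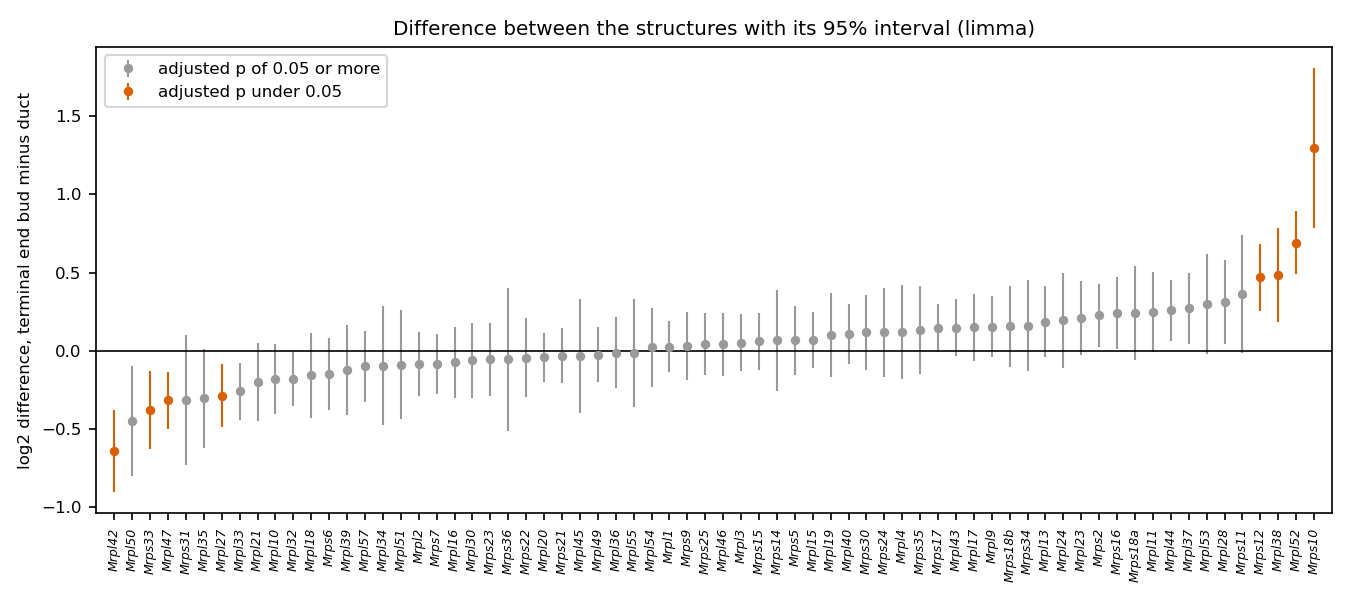
Difference in log2 ratio, terminal end buds minus ducts, for the 68 genes in order, with 95% intervals from limma and the 8 genes with an adjusted p under 0.05 in orange. Most intervals include 0, and the 4 higher and 4 lower calls lie near the ends of the order.

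Array by array, the median over the 68 genes was below 0 in all 12. It was -0.29, -0.35, -0.23, -0.36, -0.15 and -0.33 in terminal end bud replicates 1 to 6 (mean -0.29, SD 0.08), and -0.33, -0.57, -0.20, -0.34, -0.32 and -0.30 in duct replicates 1 to 6 (mean -0.34, SD 0.12). The groups overlapped, and duct replicate 2 was the lowest of all arrays.

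By place in the ribosome, the small subunit proteins listed as specific to mitochondria, Mrps18b among them, had the most uniform calls. All 8 were lower in terminal end buds and in ducts (21.8% and 13% of all genes), with medians of -0.42 and -0.51. Their ratios ran from -0.85 to -0.18 and from -0.56 to -0.22, and both Mrps25 calls were lost without some single arrays. Mrps31 (-0.85) and Mrps33 (-0.74) led them in terminal end buds, and Mrps23 (-0.56) and Mrps18b (-0.54) in ducts. Of 14 small subunit proteins with a bacterial counterpart, 7 were lower and 2, Mrps10 and Mrps12, higher in terminal end buds (median -0.18), and 8 were lower in ducts (median -0.29).

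In the large subunit, 13 of 27 proteins with a bacterial counterpart were lower and 1, Mrpl23, was higher in terminal end buds (median -0.15), and 17 were lower in ducts (median -0.28). Of 18 listed as specific to mitochondria, Mrps18a among them, 11 were lower and 2, Mrpl38 and Mrpl52, higher in terminal end buds (median -0.31). In ducts 13 were lower and the same 2 higher (median -0.36). Large and small subunits as wholes lay close together, at -0.27 (45 genes) and -0.31 (22 genes) in terminal end buds and -0.34 and -0.39 in ducts. For all genes the shares were 21.8% lower and 24.8% higher in terminal end buds, and 13% lower and 17.1% higher in ducts. No difference between these groups of ribosomal proteins was tested.

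The Mrps18 paralogues share an ancestor but lie in different parts of the ribosome. Mrps18b, in the small subunit, was at -0.38 in terminal end buds (SE 0.09, adjusted p = 0.00199) and -0.54 in ducts (SE 0.09, adjusted p = 0.000288). Mrps18a, in the large subunit, was at -0.17 (SE 0.10, adjusted p = 0.201) and -0.41 (SE 0.10, adjusted p = 0.00664). Mrps30, also of the large subunit, was at -0.41 (adjusted p = 0.000621) and -0.53 (adjusted p = 0.000176). Mrps18c and Mrpl12 were not analysed here.

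For 3 genes 2 probes were present. The probes of Mrpl3 and Mrps15 disagreed in at least 1 call against stroma, and those of Mrps12 had the same signs but differed in which calls passed. Mrpl3, a counterpart of a bacterial large subunit protein, was at 0.06 and 0.01 by the probe read for the gene (adjusted p = 0.446 and 0.95) and at -0.37 and -0.64 by the other (adjusted p = 0.000491 and 1.09e-05). Mrps15 was at -0.26 and -0.32 by the probe read (adjusted p = 0.00254 and 0.00107) and at 0.04 and 0.12 by the other (adjusted p = 0.741 and 0.25), and the mean of both did not pass (-0.11 and -0.10, adjusted p = 0.158 and 0.257). For Mrps12 the other probe gave 0.17 in terminal end buds (adjusted p = 0.0747) and a difference between the structures of 0.25 (adjusted p = 0.119). The mean of both Mrps12 probes kept the calls in terminal end buds (0.22, adjusted p = 0.0115) and between the structures (0.36, adjusted p = 0.0133).

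The lists of genes that work with the mitochondrial ribosome also had medians below 0 in both structures. Among all genes on the array, 21.8% were lower and 24.8% higher in terminal end buds, and 13% lower and 17.1% higher in ducts. Of 5 translation factors measured, 4 were lower in terminal end buds and 4 in ducts (medians -0.49 and -0.45). Gfm1, the elongation factor that moves the ribosome along the message, was at -1.39 and -0.96, and Mtif2, the initiation factor that brings in the first tRNA, at -1.0 and -0.47. Mtif2 was lower in terminal end buds than in ducts by -0.52 (adjusted p = 0.012) and Gfm1 by -0.43 (adjusted p = 0.0382), and both calls were lost under quantile normalization (-0.19, adjusted p = 0.352, and, turned in sign, 0.14, adjusted p = 0.609) and under the common median absolute deviation. Of 3 ribosomal subunits with other names, Ptcd3 was lower in both (-0.74 and -0.49) and the GTP-binding Dap3 in ducts (-0.24, adjusted p = 0.0313), while Dap3 in terminal end buds was at -0.19 (adjusted p = 0.0619).

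Of 9 genes that charge mitochondrial tRNAs, 6 were lower and 1 higher in terminal end buds, and 5 were lower in ducts (medians -0.43 and -0.24). Gatc, a subunit of the amidotransferase that completes glutaminyl-tRNA, was lowest in terminal end buds (-0.82), Gatb of the same enzyme in ducts (-0.66), and Ears2, the glutamyl-tRNA synthetase, was higher in terminal end buds (0.35). Of 13 genes of ribosome assembly, 8 were lower and 1 higher in terminal end buds and 5 lower and 1 higher in ducts. Nsun4, an RNA methyltransferase of the ribosome, was lowest (-0.76 and -0.51), and Mtg2, an assembly GTPase, was higher (0.23 and 0.28). Ngrn was lower in terminal end buds than in ducts (-0.37, adjusted p = 0.0484). Under quantile normalization the calls of Ears2 (adjusted p = 0.0532) and Mtg2 (adjusted p = 0.118) in terminal end buds and of Ngrn between the structures (adjusted p = 0.188) were lost.

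Of 8 genes of mitochondrial DNA upkeep and transcription, 5 were lower in each structure. Tfam, which packages mitochondrial DNA, was at -0.44 and -0.38. Tfb2m, a transcription initiation factor, was at -1.24 and -0.36, a difference of -0.88 between the structures (adjusted p = 0.00137). Polg, the mitochondrial DNA polymerase, was higher in terminal end buds than in ducts by 0.30 (adjusted p = 0.0189). The calls of Tfb2m and Polg between the structures held under both scalings (adjusted p up to 0.0291 and 0.0157). The Polg call was lost on slides up to 193 (adjusted p = 0.137) and on slides from 196 (adjusted p = 0.177). That of Tfb2m was kept on both sets of slides (adjusted p = 0.0263 and 0.0144). Tufm and Polrmt were not analysed here.

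Respiratory subunits encoded in the nucleus, which the mitochondrial ribosome does not make, and the import route were compared as context. Of 60 nuclear-encoded subunits of the respiratory chain and ATP synthase, 50 were lower and 3 higher in terminal end buds, and 47 lower and 1 higher in ducts. Their medians of -1.08 and -0.78 lay further below 0 than those of the ribosomal proteins (-0.29 and -0.36), a difference that was not tested. Cox6c, of cytochrome oxidase, was lowest (-3.04 and -1.55), and Atp5g1, of the ATP synthase ring, was highest (1.09 and 0.55). Of 24 import genes, 16 were lower and 3 higher in terminal end buds and 12 lower and 1 higher in ducts (medians -0.45 and -0.34), from Timm44 of the import motor (-1.26 and -0.76) to Tomm34 (0.46 and 0.30). Between the structures, 15 respiratory genes were lower and 1 higher in terminal end buds (median -0.29), but the median turned to 0.11 with 2 lower and 3 higher under quantile normalization.

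The cytosolic ribosomal proteins went the other way. Of 57 genes, terminal end buds had 41 higher and 3 lower, and ducts 42 higher and 1 lower, with medians of 0.75 and 0.83. Rpl13a, of the large cytosolic subunit, was highest (2.93 and 1.92), and Rps15 was lowest in terminal end buds (-0.48). This list was added after its values could be seen.

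Fat and endothelial markers were lower in the epithelium as well. On single arrays the median of the 10 brown adipocyte markers lay between -2.92 and -2.47 in terminal end buds and between -2.35 and -1.0 in ducts. That of the 12 white adipocyte markers lay between -1.94 and -1.52 and between -0.78 and -0.39. Between the structures, 7 of the brown and 8 of the white markers were lower in terminal end buds (medians -0.93 and -1.04), while the ribosomal proteins differed by a median of 0.04. Quantile normalization left 0 of the brown and 1 of the white calls (medians -0.13 and -0.51), and the common median absolute deviation left 0 and 6. The 7 endothelial markers, whose array medians lay between -1.58 and -1.17 in terminal end buds and between -0.57 and -0.16 in ducts, were all lower in terminal end buds than in ducts (median -0.96), 5 of them under quantile normalization. The part of fat and endothelial cells in the lower ratios of the ribosomal proteins was not tested.

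**Figure D4:**
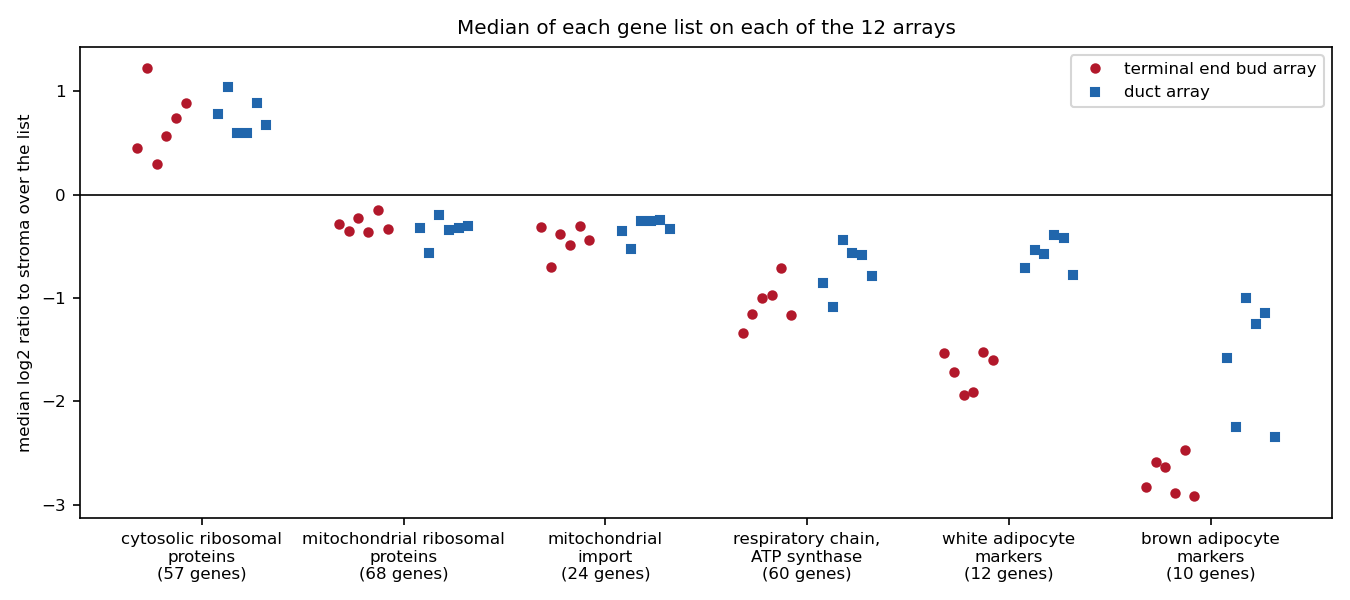
Median log2 ratio to stroma over each gene list on each of the 12 arrays, circles for terminal end buds and squares for ducts. The mitochondrial ribosomal proteins lie just below 0 on every array and overlap between the structures, the cytosolic ribosomal proteins lie above 0 on every array, the brown adipocyte markers lie lowest on every array, and both sets of fat markers lie apart between the structures.

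Many of the member genes start back to back with a neighbour. A gene on the opposite strand started within 1000 bases upstream in 21 of 60 members (35%), against 12.3% of all genes in the promoter table and 16.6% of those on the array. For 16 of the 21 the neighbour was measured. Among these neighbours, Tcp1, Klc4, Ighmbp2, Mitd1, Psma2, Cyb5rl, Hira and 2610507I01Rik did not pass against stroma in either structure. Mrpl46 and Mrps11, members both, start 42 bases apart, and were at -0.64 and -0.05 in terminal end buds and -0.68 and -0.41 in ducts. Mrpl47 starts 308 bases from Ndufb5, of respiratory complex I, which was also lower (-0.77 and -0.88).

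Some other neighbours lay away from the member's value in at least 1 structure. Mrpl49 starts 192 bases from Fau, which encodes a cytosolic ribosomal protein, and was at -0.09 and -0.06 while Fau was at 1.07 and 0.95 (adjusted p = 0.000537 and 0.00266). Mrpl51 starts 614 bases from Ncapd2, of the condensin complex of mitotic chromosomes, and was at -0.33 in terminal end buds while Ncapd2 was at 0.94 (adjusted p = 1.97e-06). Mrps18b starts 756 bases from Ppp1r10, and was at -0.38 in terminal end buds while Ppp1r10 was at 0.36 (adjusted p = 0.000628). Mrps12 starts 147 bases from Sars2, the mitochondrial seryl-tRNA synthetase. In terminal end buds Mrps12 was at 0.28 and Sars2 at -0.02 (adjusted p = 0.867 for Sars2). In ducts Mrps12 was at -0.19 and did not pass, and Sars2 was at -0.24 (adjusted p = 0.0427). Between the structures Mrps12 differed by 0.47 and Sars2, with the same sign, by 0.22 (adjusted p = 0.239). The pairs named here were chosen after their values were seen.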

How the data were processed

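The deposited values were log ratios, 1 per probe and array, from 12 arrays of 2 colours, and were read as log2 of Cy5 over Cy3; neither the labels nor the file headers state the log base, scanner or normalization, and per the labels no dyes were swapped. Probes were named by the platform annotation and RefSeq gene numbers (68 of 68 genes matched). Values were taken as deposited, and all 68 genes passed the filter of at least 4 values for each group (1 value of Mrpl20 was missing, in terminal end bud replicate 2). Both group means were fitted in 1 model over 12 arrays and 17589 probes (limma 3.58.1, R 4.3.3, lmFit and eBayes, two-sided, Benjamini-Hochberg over all probes, threshold 0.05), tested on simulated data. A gene was read from the probe with most values, then the first in the table. Named were the 12 highest and 12 lowest members past the threshold in each comparison, members with several probes, members picked for their role, and the extremes of each comparison list. Members and lists were chosen with earlier results of these data known. Replicates are numbered in accession order, which pairs no samples; neighbouring slide numbers from the titles, each with 1 array of both structures, were tried as a block. Alternatives changed centring, quantile normalization, spread, missing values, variance, array weights, slide numbers, samples, probes and size. The number of arrays limits the precision.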

Additional observations from a re-analysis of the deposited data

Results flagged for a closer look

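Single arrays stood apart for 11 of 136 sets of 6 values (68 genes in each structure), where chance gives about 1 in 20. In terminal end buds these were Mrpl3 (replicate 4 at 0.357, the others up to 0.06), Mrps14 (replicate 4 at 0.367, the others from -0.20 to -0.09), Mrpl44 (replicate 5 at 0.159, the others from -0.24 to -0.12), Mrps12 (replicate 5 at 0.443, the others up to 0.28) and Mrps16 (replicate 5 at 0.052, the others from -0.47 to -0.29). Mrps31 stood apart by replicate 6 at 0.203 (others from -1.15 to -0.97), Mrpl38 by replicate 3 at 1.555 (others up to 0.93) and Mrpl18 by replicate 2 at -1.313 (others down to -0.77). In ducts all 3 came from replicate 2, which was lowest for Mrpl39 (-1.332, the others down to -0.75), Mrps23 (-0.981, down to -0.58) and Mrps34 (-1.04, down to -0.55).

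The ratio to stroma differed between terminal end buds and ducts by the test of the difference itself for 8 genes. Higher in terminal end buds were Mrps10 (1.295), Mrpl52 (0.692833), Mrpl38 (0.486167) and Mrps12 (0.470667). Lower were Mrpl27 (-0.2855), Mrpl47 (-0.315167), Mrps33 (-0.378167) and Mrpl42 (-0.641). These shares of 5.88% higher and 5.88% lower compare with 9.11% and 11.3% among all genes. Of the 8 calls, 0 held in every alternative.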

How the results depend on the processing

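The 40 lower members in terminal end buds and 47 in ducts stayed within 1.5 times under every alternative but a minimum size of 0.5, which left 17 and 20. That size left 3 and 0 higher members against stroma, and 2 higher and 1 lower between the structures. Slides up to 193 (2 arrays for each group) gave 2 higher in terminal end buds, 0 in ducts, and 0 higher and 2 lower between the structures, and slides from 196 gave 2 lower. Between the structures, quantile normalization gave 12 higher, 0 lower and a median of 0.19, and a common median absolute deviation gave 0 lower. Without single arrays, 3 to 6 members were higher and 2 to 5 lower between the structures, the fewest lower without terminal end bud replicate 1 or 2 or duct replicate 3 or 4. The member medians then ran from -0.35 to -0.27 in terminal end buds, from -0.39 to -0.32 in ducts and from 0.01 to 0.08 between the structures. The mean of both probes turned Mrpl3 to -0.15 (adjusted p = 0.0319) in terminal end buds and -0.32 (adjusted p = 0.000527) in ducts, and quantile normalization turned Mrpl47 between the structures to 4.9e-05 (adjusted p = 1.0). Called in every alternative were 29 of 45 members in terminal end buds, 27 of 49 in ducts and 0 of 8 between the structures. The causes were not tested.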
